A study of Mus musculus with 25 samples.

Results

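The 36 genes described here are markers of B cells, T cells and the specialised blood vessels of lymph nodes, measured by RNA sequencing in 2 white adipose depots of the mouse. They were chosen by symbol from 54752 gene rows after earlier results from these libraries had shown lymph node genes at high levels in inguinal fat. The levels in the inguinal libraries of mice on normal diet, and their contrasts with high-fat feeding and with epididymal fat, are therefore given as a description. They stand without p values, and nothing is read from counts of calls in them. Of the 36 genes, 11 belong to the B cell surface, its signalling or its transcription, 3 to immunoglobulin, 7 to T cell receptor signalling, 7 to T cell co-receptors and costimulation, 3 to naive T cells and their homing, 2 to regulatory or cytotoxic lymphocytes and 3 to high endothelial venules.

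Lymphocytes recirculate between blood and lymph nodes, which they enter across high endothelial venules. These vessels display mucin-like adhesion ligands, among them GlyCAM-1, and MAdCAM-1, a ligand of the integrin that guides lymphocytes to mucosal tissue. Inside the node, B cells collect in follicles around stromal cells that secrete CXCL13, whereas naive T cells and dendritic cells bearing CCR7 follow CCL19 and CCL21. The inguinal fat pad of the mouse encloses a lymph node. Adipose tissue also holds lymphocytes outside nodes, and their composition is known to shift in obesity.

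The study compared normal diet (ND) with a high-fat diet (HFD), and wild type (WT) with *Acod1*-/- mice on HFD, to ask how loss of the itaconate-producing enzyme ACOD1 affects diet-induced obesity. Epididymal white adipose tissue (eWAT) came from 4 WT mice on ND, 5 WT mice on HFD and 5 *Acod1*-/- mice on HFD. Inguinal white adipose tissue (iWAT) came from 3, 5 and 3 mice of the same kinds. All were male C57BL/6N mice. Whether the 2 depots came from the same mice is not given in the sources used here, and comparisons of depots treat the libraries as independent. The HFD, with 60% of calories from fat, began at 5 weeks of age and lasted 16 weeks, although the labels of 2 iWAT *Acod1*-/- mice read 17 and 18 weeks. *Acod1*-/- mice carried the C57BL/6N-Acod1em1(IMPC)J/J deletion and were compared with littermates from *Acod1*+/- matings. No *Acod1*-/- mice on ND are among these libraries, so genotype was compared on HFD alone.

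Reads counted on genes numbered 31405063 to 52335623 per library. The headers of the files placed the libraries in 2 sequencing series, with all 7 ND libraries and 1 library of each HFD group in the second, so that diet and series could hardly be told apart. *Acod1* itself had 0 to 9 reads in the 17 WT libraries, 8 of them without any, and 0 to 2 reads in the 8 *Acod1*-/- libraries, so that its RNA could not check the genotype labels. Levels are given as CPM, counts scaled to library size on a common scale over the 25 libraries, and adjusted p values come from edgeR's quasi-likelihood test on the counts, called below 0.1. The adipocyte list was abundant in every library, with a summed level of 31050 to 81210 CPM. Several libraries stood apart. The iWAT ND library 1 carried 7095 CPM of skeletal muscle genes and the eWAT ND library 2 carried 6635 CPM of epididymal and mesothelial genes. For the genes of interest, iWAT WT HFD library 5 stood above the other libraries of its group, and eWAT *Acod1*-/- HFD library 4 stood above its group for most B cell genes and some T cell genes.

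In iWAT of WT mice on ND, most B cell and T cell genes and the venule gene *Glycam1* stood far above their levels in nearly all other libraries. The 10 B cell genes other than *Cd37* summed to 819, 1162 and 924 CPM in the 3 iWAT ND libraries. The same sum was 4.71 to 10.1 CPM in the 4 eWAT ND libraries, 11.5 to 30.9 in eWAT WT HFD, 6.74 to 57.5 in eWAT *Acod1*-/- HFD and 3.23 to 9.41 in iWAT *Acod1*-/- HFD. In iWAT WT HFD it was 7.75 to 9.95 CPM in libraries 1 to 4 and 111 in library 5. The 17 T cell genes followed the same order, with 562, 933 and 618 CPM in iWAT ND, 13.3 to 24.4 in iWAT WT HFD libraries 1 to 4, 176 in library 5 and 5.39 to 58.5 in the libraries of the other 4 groups. Fewer cells of a type and less RNA per cell cannot be told apart in such bulk libraries. Whether the lymph node was part of each inguinal sample is not given in the sources used here. Its part in these levels was not tested, and a node left in or out cannot be told apart from diet.

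**Figure D1:**
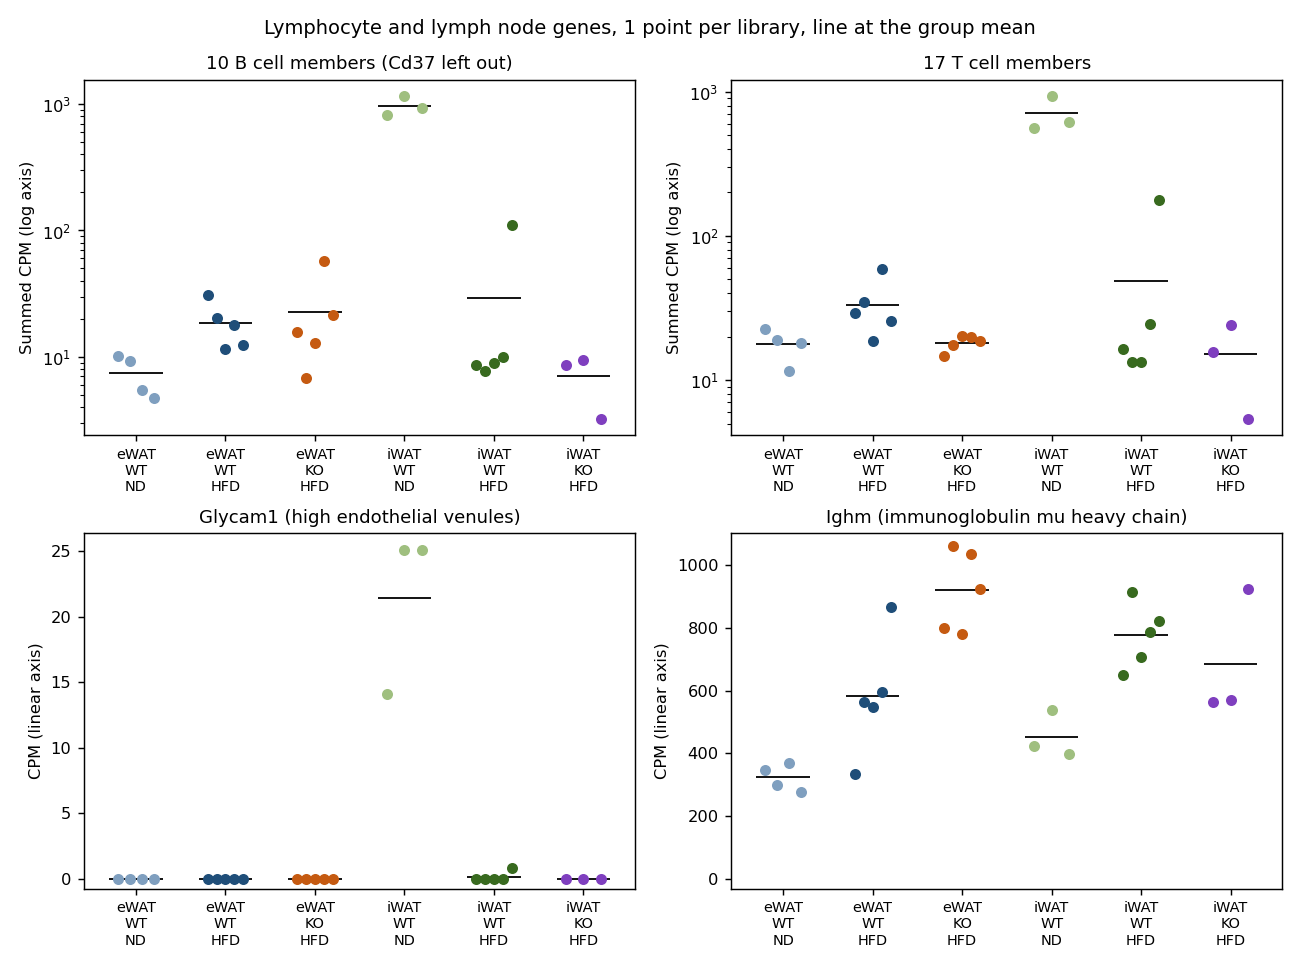
Each point is 1 library and each line a group mean, for the summed CPM of 10 B cell genes and of 17 T cell genes (log axes) and the CPM of Glycam1 and Ighm (linear axes), over the 6 groups. The 3 iWAT WT ND libraries lie above all others for B cell, T cell and Glycam1 levels, iWAT WT HFD library 5 lies between, and Ighm lies between 278 and 1062 CPM everywhere.

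*Ms4a1*, which encodes the B cell surface protein CD20 (ENSMUSG00000024673, chromosome 19, 11249675 to 11266241 in GRCm38), measured 109, 155 and 97.9 CPM in the iWAT ND libraries. It measured 0.3, 0.765, 0.683, 0.81 and 6.83 CPM in iWAT WT HFD and 1.36, 0.789 and 0.704 CPM in iWAT *Acod1*-/- HFD. The groups on ND and HFD were apart by more than an order of magnitude, and the fitted log2 difference between WT HFD and WT ND was -5.93 ± 0.83 (SE, 5 against 3 libraries). *Cd79a* and *Cd79b*, the signalling chains of the B cell receptor, behaved alike. *Cd79a* measured 104, 160 and 154 CPM on ND against 0.8, 1.2, 0.607, 0.86 and 13.7 CPM in WT on HFD, a log2 difference of -5.28 ± 0.96. *Cd79b* measured 78.3, 125 and 121 CPM on ND against 1.38, 1.96, 0.48, 1.25 and 13.2 CPM on HFD, a log2 difference of -4.83 ± 0.90. Library 5 was the highest of the HFD libraries for each of these genes and remained below every ND library.

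Genes of the mature, follicular B cell were among those that differed most. *Fcer2a*, the low-affinity IgE receptor CD23, had a log2 difference of -6.50 ± 0.92, *Cr2*, the complement receptor CD21, of -5.48 ± 1.22, and *Fcmr*, an Fc receptor for IgM, of -5.64 ± 1.03. *Ighd*, the heavy chain of IgD that naive B cells carry beside IgM, measured 218, 364 and 284 CPM on ND, 4.3 to 7.45 CPM in HFD libraries 1 to 4 and 25.3 CPM in library 5. *Pax5*, the transcription factor that maintains B cell identity, had the smallest log2 difference but 2 of the 11, -3.94 ± 1.28, as library 5 held 39.8 CPM of it against 0.809 to 1.13 CPM in the other 4. *Jchain*, which joins IgM or IgA into polymers and marks antibody-secreting cells, was low even on ND at 9.36, 19.1 and 5.54 CPM and measured 0.521 CPM in library 5, within the range of the other HFD libraries.

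The T cell genes covered the whole receptor pathway. *Cd3e*, a signalling chain of the T cell receptor complex (ENSMUSG00000032093, chromosome 9, 44998740 to 45009627), measured 36.4, 49.3 and 37.9 CPM on ND and 0.95, 0.867, 1.31, 1.67 and 8.19 CPM in WT on HFD, a log2 difference of -3.93 ± 0.76. *Tcf7*, the transcription factor TCF-1 of naive T cells, measured 80.7, 143 and 79.7 CPM against 1.95, 1.45, 1.8, 1.99 and 21.1 CPM. *Ccr7*, the receptor for CCL19 and CCL21, measured 32.7, 54.5 and 41.8 CPM against 0.35, 0.51, 0.48, 0.737 and 6.25 CPM. All 3 genes had every ND library above every HFD library, and library 5 in between.

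Both co-receptors were present on ND. *Cd4* measured 44, 78.3 and 41.8 CPM and *Cd8a* 60, 98.3 and 54.4 CPM, so that their ratio within a library was 0.733 to 0.796. *Foxp3*, the transcription factor of regulatory T cells, was low, with 6.46, 7.77 and 4.22 CPM on ND and at most 1.16 CPM on HFD. Its exons overlap those of *Ccdc22* and *Ppp1r3f* on the other strand, and whether the counting used strand is not given in the sources used here. The same limit holds for *Cd37*, whose exons overlap those of *Tead2* on the other strand. It also holds for *Cd22*, *Pax5*, *Cd3e* and *Lef1*, which overlap genes there that are not annotated as protein-coding. *Nkg7*, a granule protein of cytotoxic lymphocytes, differed least among the genes that were lower, with a log2 difference of -2.19 ± 0.58.

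Of the high endothelial venule genes, *Glycam1* was nearly restricted to iWAT on ND and the other 2 were low. *Glycam1* (ENSMUSG00000022491, chromosome 15, 103562759 to 103565081) measured 14.1, 25.1 and 25.1 CPM in iWAT ND, from 2994 reads in all. Outside this group it had 41 reads in iWAT WT HFD library 5, 1 read in eWAT ND library 1 and none in the other 20 libraries. Taking 3 counts per library as the floor, which covers counting error only, the lowest iWAT ND library was at least 149-fold higher than iWAT *Acod1*-/- HFD, at least 181-fold higher than eWAT WT HFD and at least 122-fold higher than eWAT *Acod1*-/- HFD. *Madcam1*, the addressin, measured only 1.24, 1.09 and 1.79 CPM on ND in iWAT and 0 to 0.506 CPM in the other libraries. *Chst4*, a sulfotransferase that acts on the adhesion ligands of these vessels, did not follow *Glycam1*. It measured 2.25, 1.57 and 0.59 CPM in iWAT ND and had no read in the 8 iWAT HFD libraries, but it was present at 0.545 to 4.32 CPM in 13 of the 14 eWAT libraries, where *Glycam1* was all but absent.

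**Figure D2:**
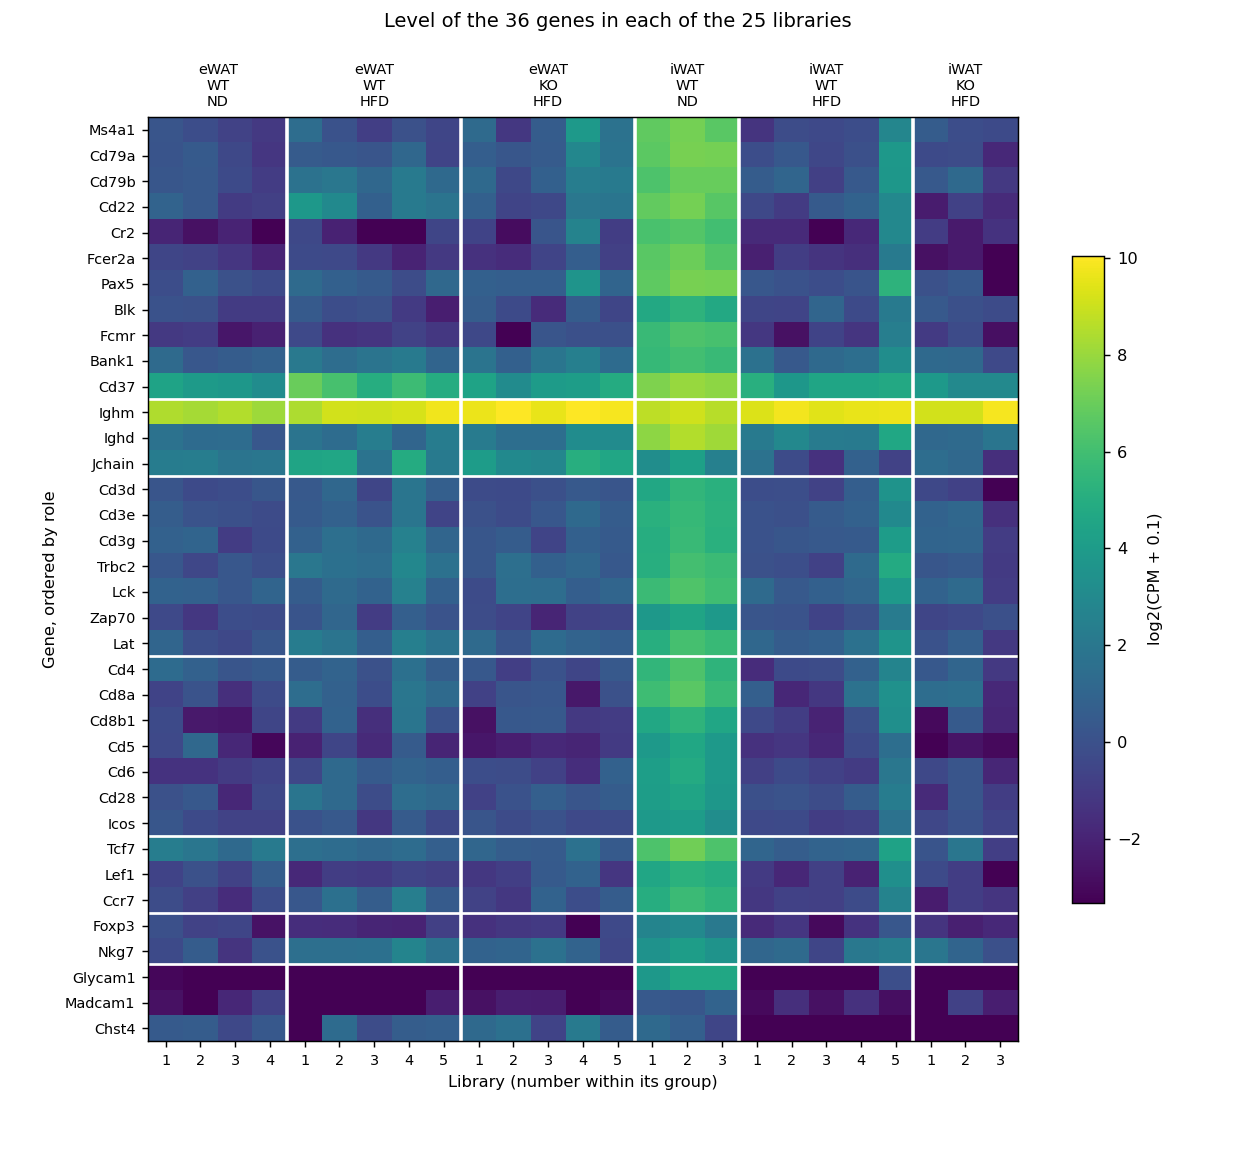
Colour gives log2(CPM + 0.1) for the 36 genes, ordered by role, in each of the 25 libraries, ordered by group. The 3 iWAT WT ND columns are bright across B cell and T cell genes and Glycam1, iWAT WT HFD library 5 is intermediate, eWAT KO HFD library 4 is bright in several B cell rows, and Ighm is bright in all columns.

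Per length of transcript, the order of levels in iWAT ND was led by immunoglobulin. In the deposited FPKM values, which scale counts by transcript length and library depth, the mean over the 3 libraries was 262 for *Ighm*, 165 for *Ighd*, 104 for *Cd79a*, 81.8 for *Cd79b* and 80.5 for *Trbc2*, a constant region of the T cell receptor beta chain. The ranges of neighbours in this order overlapped between libraries for *Cd79a* (80.5 to 123), *Cd79b* (61.8 to 97.2) and *Trbc2* (53.7 to 107). The lowest 3 were *Foxp3* at 1.48, *Madcam1* at 1.03 and *Chst4* at 0.714.

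Genes of the lymph node stroma and its chemokines moved with these genes. Those named here were picked after their values were seen. The lists of related genes were chosen with earlier results of these data known. As the choice of genes rested on this same contrast, nothing is read from the counts of calls below. *Cxcl13*, the follicular B cell chemokine, was 56.1 to 61.8 CPM in iWAT ND and 0.918 to 6.63 CPM in iWAT WT HFD, and in library 5 it was 3.16, within the range of the other 4. *Ccl21a* was 85.7 to 214 CPM on ND, 0 to 1.87 in HFD libraries 1 to 4 and 8.13 in library 5. Of the lists of related genes, 14 of 14 other B cell genes tested, 13 of 14 other T cell genes, 8 of 8 further immunoglobulin constant genes, 8 of 11 lymph node stroma and chemokine genes, 8 of 8 pan-leukocyte genes and 6 of 8 dendritic cell genes were called lower on HFD in WT iWAT, where 24.2% of all genes tested were called lower and 25.9% higher. In the stroma and chemokine list 1 gene was called higher, and of 6 plasma cell genes tested 3 were called lower and 1 higher. The macrophage list went the other way, with 7 of 10 called higher, as did 6 of 7 endothelial and 5 of 6 fibroblast genes, and the lymphatic endothelium list had 2 of 6 called higher and none lower. Skeletal muscle genes were also called lower, 5 of 5, with summed levels of 5.48, 274 and 7095 CPM as lowest, median and highest on ND and 18.4 to 298 CPM on HFD. The iWAT ND library with the least muscle, library 2, had the highest B cell and T cell sums, and the part of muscle in the lymphocyte gene levels was not tested.

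Counted over the list, 33 of the 34 genes tested by diet in iWAT were lower on HFD and 1 was higher, beside the same shares of all 14801 genes tested. The 2 untested genes, *Madcam1* and *Chst4*, had a mean below 1 CPM over the iWAT libraries. Without that filter 35 of 36 were lower and 1 higher, where 12.2% of all genes were called lower and 11.4% higher. The median log2 difference of the 34 was -3.94, beside 0.00 over all genes, and it was -5.50 without library 5. Because these contrasts guided the choice of genes, nothing is read from the counts. Within the second series, the only iWAT WT HFD library was library 5, with 111 CPM of B cell genes against 819 to 1162 CPM in the ND libraries. The only iWAT *Acod1*-/- library in it was library 3, with 3.23 CPM.

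The level in library 5 of iWAT WT HFD, as a share of that on ND, differed from gene to gene. Relative to the mean of the 3 ND libraries, its 10 B cell genes without *Cd37* stood at a median of 9.75% (4.11% to 28.4%), and its 17 T cell genes at a median of 23.4% (12% to 55.4%). All 10 and all 17 were above their highest value in HFD libraries 1 to 4. *Trbc2* was at 55.4%, *Cd3g* at 40.5% and *Cd3d* at 33.5%, whereas *Ms4a1* was at 5.66%, *Fcer2a* at 4.11% and *Glycam1* at 3.84%. The summed T cell level was 1.58 times the summed B cell level in library 5 and 0.668 to 0.803 times in the 3 ND libraries. In the other iWAT HFD libraries, where both sums were low, the ratio was 1.49 to 2.57. With 1 such library, these values describe that library and were not tested.

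**Figure D3:**
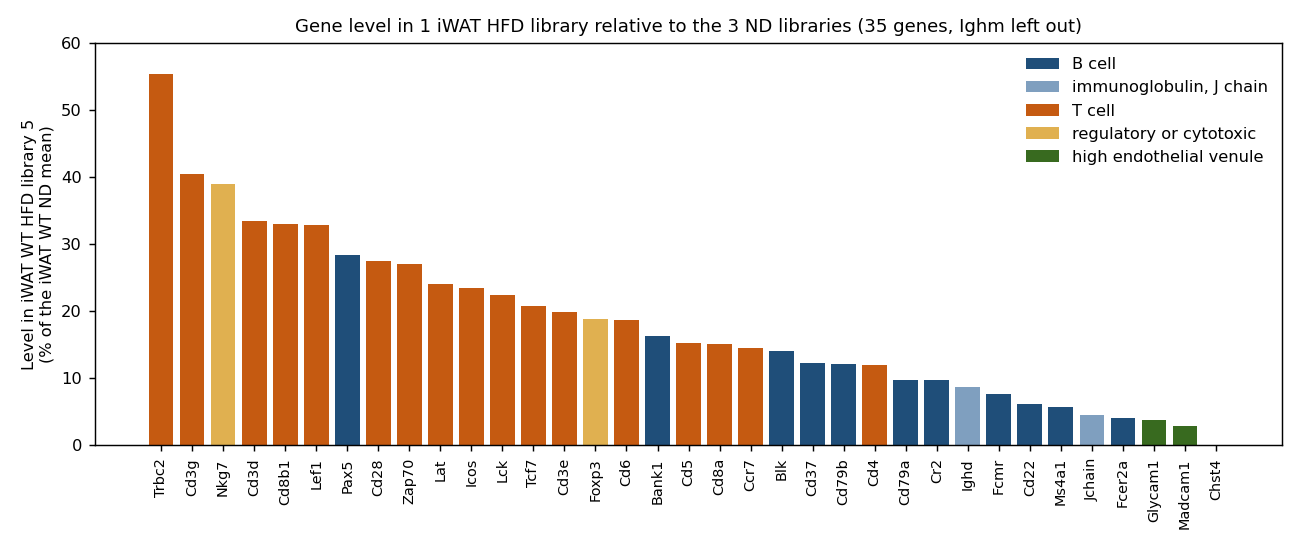
Bars give the level of 35 genes in iWAT WT HFD library 5 as a percentage of the mean of the 3 iWAT WT ND libraries, coloured by role (Ighm, at 181%, is left out). T cell genes fill most of the upper ranks, from 12% to 55.4%, and high endothelial venule genes the lowest, at 3.84% or less.

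*Ighm*, the constant region of the IgM heavy chain (ENSMUSG00000076617, chromosome 12, 113418558 to 113422730), was the exception to this pattern. It was abundant in all 25 libraries, at 278 to 1062 CPM, including those with hardly any *Ms4a1* or *Cd79a*. In iWAT it measured 422, 539 and 399 CPM on ND and 651, 914, 707, 787 and 823 CPM in WT on HFD, so every HFD library was above every ND library and the log2 difference was 0.81 ± 0.20. In iWAT the light chain did not accompany it. *Igkc*, the kappa constant region, was 92.9 to 161 CPM in iWAT ND and 1.21 to 24.2 CPM in iWAT WT HFD. *Ighm* exceeded *Igkc* 2.56 to 4.54 times in iWAT ND but 34.0 to 583 times in iWAT WT HFD. In eWAT, *Igkc* was 6.38 to 14.2 CPM on ND and 36.5, 65.4, 6.17, 72.7 and 19 CPM in WT mice on HFD. It was 20.3 to 82.3 CPM in eWAT of *Acod1*-/- mice. *Ighd* was 0.517 to 0.710 times *Ighm* in the iWAT ND libraries, 0.0308 times in library 5 and at most 0.0105 times in the other 21 libraries. No exon of another annotated gene overlaps *Ighm* in GENCODE vM21.

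In iWAT on HFD, none of these genes passed edgeR's test between *Acod1*-/- and WT mice, where 0% of all 14801 genes tested were called. At an unadjusted p under 0.05, 11 of the 34 genes tested passed, where 16.7% of all genes did. Of the 34, 7 averaged under 1 CPM over the 8 iWAT HFD libraries, and 20 did so without WT library 5, so that they passed the filter through the ND libraries or library 5. *Cd79a* measured 0.695, 0.758 and 0.194 CPM in *Acod1*-/- mice, overlapping the 0.607 to 13.7 CPM of WT mice, with a log2 difference of -2.73 ± 1.15 (adjusted p = 0.268). *Cd3e* measured 1.75, 2.08 and 0.267 CPM against 0.867 to 8.19 CPM (log2 difference -0.996 ± 0.81, adjusted p = 0.572). The median log2 difference of the 34 genes was -1.68 with WT library 5 and -0.15 without it. DESeq2's Wald test called 4 of them lower, *Cd22*, *Fcer2a*, *Cd37* and *Ighd*, where it called 4.27% of all genes lower. None of the 3 *Acod1*-/- libraries had a *Glycam1* read.

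In eWAT, the HFD was accompanied by higher levels of a subset of these genes in WT mice, at levels well below those of iWAT on ND. Of the 23 genes that passed the filter, 14 rose and 1 fell, where 24.8% of all 14936 genes tested rose and 26.9% fell. Of those that rose, *Cd3d*, *Cd8a* and *Ccr7* averaged under 1 CPM in both eWAT WT ND and eWAT *Acod1*-/- HFD. They passed the filter through the WT HFD libraries, so the share among filtered genes partly reflects the filter. Without the filter 14 of all 36 rose and none fell, where 10.5% of all genes rose and 11.6% fell. The 3 with the smallest adjusted p were *Trbc2*, *Cd37* and *Nkg7*. *Trbc2* measured 1.13, 0.616, 1.16 and 0.836 CPM on ND and 3.83, 2.94, 2.67, 7.16 and 3.1 CPM on HFD (log2 difference 2.07 ± 0.41, adjusted p = 0.00183). *Nkg7* measured 0.698, 1.38, 0.302 and 0.934 CPM on ND and 2.81, 2.87, 2.97, 6.49 and 3.24 CPM on HFD (2.14 ± 0.51, adjusted p = 0.00494). *Cd37*, a tetraspanin of B cells and other leukocytes, measured 21.9, 15.3, 13.4 and 8.99 CPM on ND and 126, 71.2, 32.3, 57.2 and 30.8 CPM on HFD (2.09 ± 0.45, adjusted p = 0.00293). In these genes every HFD library was above every ND library.

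Among T cell genes, 4 of the 6 receptor and signalling genes tested rose on HFD in eWAT, *Cd3d*, *Cd3g*, *Trbc2* and the adaptor *Lat*, and so did *Cd8a*, the costimulatory receptor *Cd28* and *Ccr7*. *Cd8a* measured 0.537, 0.979, 0.252 and 0.72 CPM on ND and 2.65, 1.71, 0.8, 3.7 and 2.35 CPM on HFD (1.84 ± 0.65, adjusted p = 0.0343), and the lowest HFD library lay within the ND range. *Cd4* did not pass the test, at 1.06 to 2.49 CPM on ND and 0.891 to 2.95 CPM on HFD (0.05 ± 0.42, adjusted p = 0.936). *Tcf7* fell, from 4.9, 3.66, 2.24 and 4.45 CPM to 2.81, 2.56, 2.12, 2.56 and 1.53 CPM (log2 difference -0.72 ± 0.33, adjusted p = 0.0903), with overlapping groups. The calls of *Tcf7*, *Cd3d* and *Cd3g* depended on the processing, as they were lost in 11, 13 and 5 of 21 alternatives, whereas *Cd8a* lost its call in none. Library 4 of eWAT WT HFD had the highest T cell sum of all eWAT libraries, 58.5 CPM, and without it 12 of the 23 genes rose, *Cd3d* and *Cd3g* no longer among them, and none fell, where 21.8% of all genes rose and 23.1% fell.

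Of the 7 B cell genes tested in eWAT, 4 rose on HFD, *Cd37*, *Cd22*, *Cd79b* and *Bank1*, while *Ms4a1*, *Cd79a* and *Pax5* did not pass the test. *Cd22*, an inhibitory lectin of B cells, measured 1.79, 1.23, 0.403 and 0.486 CPM on ND and 13.8, 8.1, 1.6, 4.42 and 3.5 CPM on HFD (2.68 ± 0.76, adjusted p = 0.0127). *Ms4a1* measured 0.37 to 1.04 CPM on ND and 0.457 to 2.67 CPM on HFD (0.71 ± 0.83, adjusted p = 0.507). *Ighm* rose from 346, 299, 368 and 278 CPM to 334, 565, 548, 595 and 866 CPM (0.85 ± 0.22, adjusted p = 0.00728), with 1 HFD library inside the ND range. *Jchain* rose as well, from 3.45 to 4.91 CPM on ND to 22.1, 23.7, 3.36, 29.4 and 4.49 CPM on HFD (1.99 ± 0.64, adjusted p = 0.0228), above every ND library in 3 of the 5 libraries, within the ND range in library 5 and just below it in library 3. Of the other lists, 2 of 8 further B cell genes and 3 of 8 further T cell genes tested rose and none fell, beside the 24.8% of all genes, and 5 of 8 further immunoglobulin constant genes rose.

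The macrophage and mast cell lists moved with these changes. All 10 macrophage genes rose on HFD in eWAT, from summed levels of 405 to 827 CPM to 1487 to 5713 CPM, and all 4 mast cell genes tested rose, from sums of 2.47 to 10.7 CPM to 9.82 to 177 CPM. The libraries with the highest macrophage sums, 1, 4 and 2 at 5713, 3678 and 3551 CPM, were the 3 highest of the group in 6 of the 14 genes that rose, *Cd79b*, *Cd22*, *Cd37*, *Jchain*, *Lat* and *Cd28*, and not in the other 8. Mast cell sums in the same 3 libraries were 177, 149 and 136 CPM against 15.2 and 9.82 CPM in the other 2. The part of macrophages or mast cells in the lymphocyte gene changes was not tested. With a term for series 10 genes rose and 1 fell, where 17.5% of all genes rose and 16.9% fell. *Ighm*, *Cd37* and *Trbc2* were among those that rose (edgeR, adjusted p = 0.0091, 0.0268 and 0.0327). Of the eWAT WT HFD libraries, only library 5 shared the series of the ND libraries. The diet difference of this fit therefore leans on few libraries and separates diet from series poorly.

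**Figure D4:**
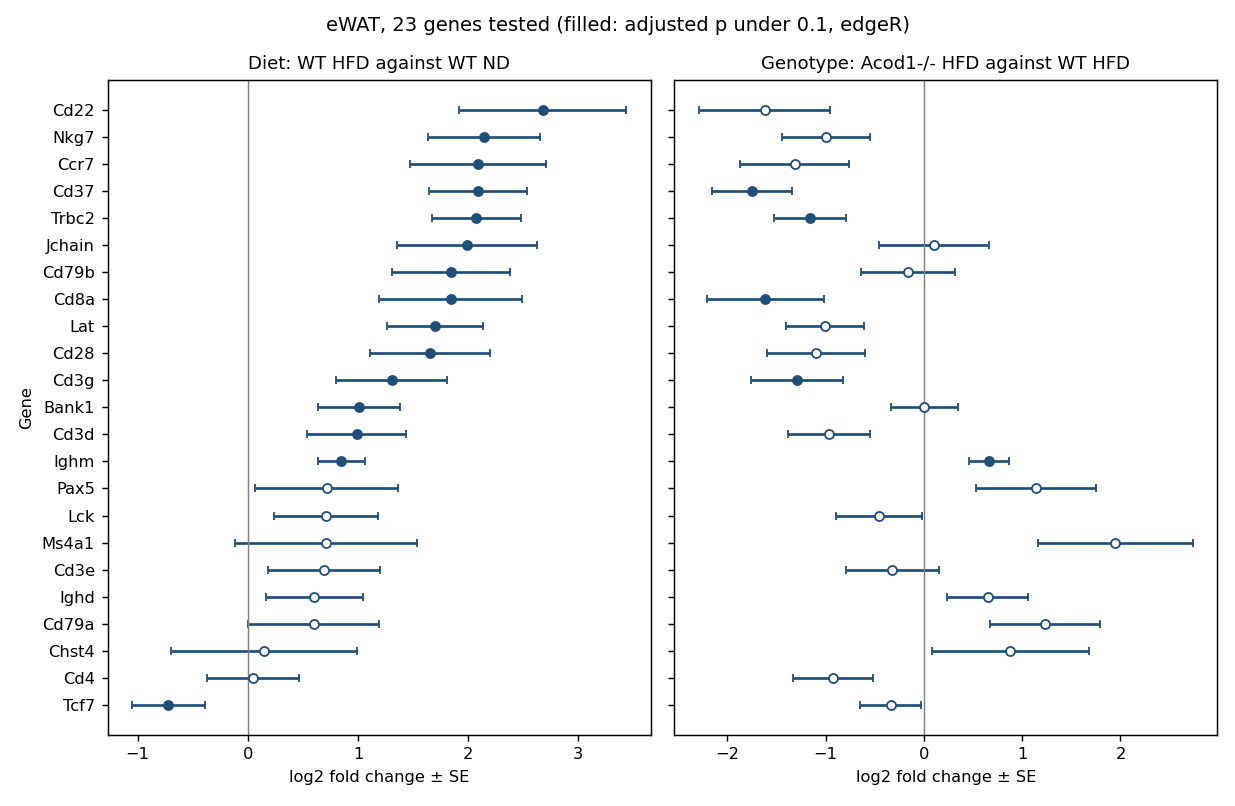
Points give the log2 fold change with its standard error for the 23 genes tested in eWAT, by diet in WT mice (left) and by genotype on HFD (right), filled where the adjusted p was below 0.1. By diet 14 genes rose and Tcf7 fell, and by genotype 4 genes fell and Ighm rose.

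Between *Acod1*-/- and WT mice on HFD in eWAT, 4 of the 23 genes tested fell and 1 rose, where 10.8% of all genes fell and 9.13% rose. The genes that fell were *Cd37*, *Trbc2*, *Cd3g* and *Cd8a*. *Cd8a* averaged 0.732 CPM in *Acod1*-/- mice and 0.622 CPM in WT mice on ND, against 2.24 CPM in WT mice on HFD. It thus passed the filter through the WT HFD libraries, so the share among filtered genes partly reflects the filter. Fewer of these genes were called without the filter. *Cd37* measured 21.8, 8.5, 16.4, 17.6 and 29.7 CPM in *Acod1*-/- mice, every library below the 30.8 to 126 CPM of WT mice (-1.75 ± 0.41, adjusted p = 0.0174). *Trbc2* measured 1.1, 2.87, 1.61, 2.08 and 1.17 CPM against 2.67 to 7.16 CPM (-1.16 ± 0.36, adjusted p = 0.0536), and *Cd8a* measured 0.498, 1.07, 1.12, 0.0799 and 0.892 CPM against 0.8 to 3.7 CPM (-1.61 ± 0.60, adjusted p = 0.0902). For these 2 genes the groups overlapped. The call of *Cd8a* was lost in 16 of 22 alternatives and that of *Cd3g* in 9. Without WT HFD library 4, *Trbc2* was not called either (-0.83 ± 0.34, edgeR, adjusted p = 0.154). *Cd37* was still called there (-1.79 ± 0.44, edgeR, adjusted p = 0.0382). The macrophage list fell in the same comparison, 10 of 10, to summed levels of 320 to 1513 CPM, and so did 4 of 4 mast cell genes; their part in the fall of the lymphocyte genes was not tested.

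*Ighm* rose with genotype in eWAT, to 800, 1062, 781, 1037 and 924 CPM in *Acod1*-/- mice against 334 to 866 CPM in WT mice (0.66 ± 0.20, adjusted p = 0.0472). It was no longer called without *Acod1*-/- library 4, when *Cd37* and *Trbc2* alone were called, lower (adjusted p = 0.0463 and 0.0836), where 7.48% of all genes were lower. *Cd37* passed the test in the fit of the first series alone (-2.15 ± 0.41, adjusted p = 0.00788) and *Ighm* as well (0.83 ± 0.21, adjusted p = 0.0244). The count of called genes moved with single libraries, from 2 to 9 when each library of the 2 groups was left out in turn.

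Library 4 of eWAT *Acod1*-/- HFD was the highest of its group in 8 of the 11 B cell genes, 5 of the 17 T cell genes (*Cd3d*, *Cd3e*, *Cd3g*, *Tcf7* and *Lef1*) and *Chst4*. *Ms4a1* was 14.2 CPM in it against 0.345 to 3.15 CPM in the other 4 libraries, *Pax5* 11.9 against 1.47 to 1.87, *Cr2* 6.26 against 0.0383 to 1.04 and *Cd79a* 7.27 against 1.11 to 3.37. *Cd37*, *Blk* and *Fcmr* were not highest in it, and *Cd79b* and *Cd22* were only just so, at 4.98 and 3.78 CPM against at most 4.52 and 3.52. *Cxcl13* was 39.4 CPM against 0.306 to 8.48. The T cell sum of this library, 19.8 CPM, lay within the 14.8 to 20.2 CPM of its group, and its T to B ratio of 0.344 was the lowest of all 25 libraries. Its *Chst4* level, 4.32 CPM, was the highest of all 25 libraries, and it had no read of *Glycam1* or *Ccl19*. Between the groups, the log2 difference of *Acod1*-/- to WT mice was 1.95 ± 0.79 for *Ms4a1* (adjusted p = 0.118) and 1.23 ± 0.56 for *Cd79a* (adjusted p = 0.164), and neither passed the test.

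Comparing depots, 32 of the 35 genes tested were higher in iWAT than in eWAT of WT mice on ND and none was lower, where 14.2% of all 15034 genes tested were higher and 17.5% lower, and these values too guided the choice of genes. The 3 not called were *Ighm*, *Jchain* and *Chst4*. *Jchain* measured 9.36, 19.1 and 5.54 CPM in iWAT and 3.45 to 4.91 CPM in eWAT (1.44 ± 0.79). In the interaction of diet and depot, 32 genes were called with a more negative diet difference in iWAT, where 14% of all genes were, and *Ighm* was not among them (-0.07 ± 0.29), its diet difference being 0.85 in eWAT and 0.81 in iWAT.

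On HFD, the depots were closer in these genes than on ND. In WT mice, 3 of the 35 genes were higher and 3 lower in iWAT than in eWAT, where 7.75% of all genes were higher and 10.8% lower. The 3 higher genes were *Glycam1*, *Ighd* and *Lef1*, and none of them was called without eWAT WT HFD library 1, 2 or 4. Without iWAT library 5 no gene was higher and 8 were lower, *Cd22*, *Cd37*, *Jchain*, *Cd3g*, *Trbc2*, *Cd6*, *Ccr7* and *Chst4*, where 6.01% of all genes were higher and 8.75% lower. *Jchain* was lower in iWAT in WT mice, at 0.278 to 3.25 CPM against 3.36 to 29.4 CPM (-3.68 ± 0.74, adjusted p = 0.0027), with no overlap between the depots. *Chst4* had no read in iWAT on HFD and a mean of 1.24 CPM in eWAT, at least 16.2-fold higher against a floor of 3 counts per library. In *Acod1*-/- mice, 2 genes were lower in iWAT, *Jchain* (-3.40 ± 0.90, adjusted p = 0.0503) and *Chst4*, at least 24.1-fold higher in eWAT, where 2.01% of all genes were lower. Without eWAT *Acod1*-/- library 4 *Jchain* was not called and *Chst4* no longer passed the filter. The interaction of genotype and depot called none of these genes in edgeR, where 0.00665% of all genes were called, with 9 of 35 at an unadjusted p under 0.05, where 10.1% of all genes were. DESeq2 called 2 lower, *Fcer2a* and *Ighd*, where it called 0.206% of all genes lower.

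Genes outside the list with the most similar profiles were sought over the libraries of each depot, among those that averaged 5 CPM or more. In the 11 iWAT libraries, the closest to *Ms4a1* were *Ciita* (Pearson r = 0.993), which drives MHC class II expression, *Rasgrp1* (0.990) and *Hvcn1* (0.984). Among those closest to *Cd3e* were *Sept1* (0.990) and *Ltb* (0.988), the gene of lymphotoxin beta. The libraries share the split between ND and HFD, which all these values contain. In the 14 eWAT libraries the highest values were lower, 0.779 for *Tmod2* with *Ms4a1* and 0.791 for *Fndc1* with *Cd3e*, and none of the 10 closest genes of either was a member of the B cell or T cell lists.

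Promoters from RefSeq (GRCm38.p6, 250 bases before and 50 after the start) were at hand for 24 of the 36 genes and were searched on both strands for 3 motifs of lymphocyte transcription factors. The octamer ATGCAAAT, bound by OCT factors, was in none of the 24 and in 1.97% of 27025 genes with a promoter. The motif CTTTGAT, bound by TCF and LEF factors, was in 1 of the 24 and in 4.29% of all. The palindrome CCCNNGGG, the core of the EBF motif, was in 4, *Bank1*, *Cd22*, *Madcam1* and *Zap70*, and in 15.4% of all. The promoters of 1 T cell and 1 B cell gene that held a match are shown to place it, with the matched bases in capitals. *Cd3d* lies on the plus strand at chr9:44981536-44981835, and its TCF and LEF match, on the other strand, spans bases -55 to -49 from the start. *Cd22* lies on the minus strand at chr7:30878979-30879278, and its EBF match spans bases -48 to -41.
Cd3d: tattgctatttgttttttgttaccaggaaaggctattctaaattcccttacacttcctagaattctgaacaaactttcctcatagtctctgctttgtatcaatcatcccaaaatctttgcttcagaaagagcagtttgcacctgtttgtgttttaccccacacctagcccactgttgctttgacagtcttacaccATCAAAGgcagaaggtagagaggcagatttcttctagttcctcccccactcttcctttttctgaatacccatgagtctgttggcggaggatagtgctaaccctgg
Cd22: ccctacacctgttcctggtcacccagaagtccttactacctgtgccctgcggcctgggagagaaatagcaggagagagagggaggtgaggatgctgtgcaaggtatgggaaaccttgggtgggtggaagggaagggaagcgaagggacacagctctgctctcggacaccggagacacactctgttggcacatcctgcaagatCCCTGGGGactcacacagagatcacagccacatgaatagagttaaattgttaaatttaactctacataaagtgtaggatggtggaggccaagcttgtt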

How the data were processed

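RNA was sequenced from 14 eWAT and 11 iWAT samples. Per the study's methods, the authors made strand-specific mRNA libraries, trimmed adaptors with cutadapt, dropped reads under 18 bases and contaminating reads, and used STAR to align what was left to GRCm38. The deposited counts are uniquely aligned reads per gene, not normalized, and rows of uncounted reads, 8.48% to 13.4% of a library, were left out. The deposited FPKM values follow from counts and cDNA lengths, and were used only to rank genes within iWAT ND. The counting program and its use of strand are not given in the sources used here. Gene IDs were joined to symbols in GENCODE vM21, which matched all 36.

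Counts were fitted per depot with edgeR 4.0.16 in R 4.3.3 (quasi-likelihood test, TMM, genes averaging 1 CPM or more, 3 groups), and over all 25 libraries for depot comparisons and interactions. Fold changes are log2, with standard errors from the fit. The Benjamini-Hochberg adjustment covered every gene in a fit, with calls at an adjusted p under 0.1. DESeq2 1.42.0 was an alternative. The fits were tested on simulated data. The members, the other gene lists and the genes named were chosen with earlier results of these data known: 18 members with values per library, the 3 called members with the smallest adjusted p per comparison, and further genes as examples of their role, picked after their values were seen. Promoter motifs were chosen by name, and their letters when the search was written. At a depth of 31405063 to 52335623 counted reads, genes near 1 CPM rest on few reads. Some genes of the other lists are not reported here.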

Additional observations from a re-analysis of the deposited data

Results flagged for a closer look

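Within groups of 4 or 5 libraries, 81 sets of values were examined for a library far from the rest by Dixon's gap. The sets share libraries and include sums and genes with few reads, so the usual rate of about 1 in 20 by chance need not hold. In all, 22 sets with such a library were found. Library 5 of iWAT WT HFD gave 15 of them, for *Ms4a1* (6.83 CPM), *Cd79a* (13.7), *Cd79b* (13.2), *Ighd* (25.3), *Cd3d* (11.8), *Cd3e* (8.19), *Cd3g* (16.5), *Cd4* (6.57), *Cd8a* (10.7), *Foxp3* (1.16), *Ccr7* (6.25), *Tcf7* (21.1) and *Glycam1* (0.821) and for the summed B cell (138, *Cd37* included) and T cell levels (176). In eWAT *Acod1*-/- HFD, library 4 was far above the rest for *Ms4a1* (14.2 CPM). In eWAT WT HFD, library 1 was far above the rest for *Ms4a1* (2.67), library 4 for *Cd3g* (5.74) and *Nkg7* (6.49), and library 5 for *Foxp3* (0.483) and *Madcam1* (0.121). In eWAT ND, library 1 held the only *Glycam1* read (0.0179 CPM).

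The diet difference of 32 members differed between iWAT and eWAT in the interaction test, and the inguinal values in that test guided the choice of genes.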

How the results depend on the processing

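The number of members called by diet in eWAT (15), by diet in iWAT (34), between depots on ND (32) and in the interaction of diet and depot (32) stayed within 1.5 times under every alternative run, and leaving out each library in turn gave 12 to 15, 33 to 34, 31 to 32 and 30 to 33. The genotype count in eWAT (5) was 2 at an adjusted p under 0.05, 3 without the filter on low counts, 9 with DESeq2 and 3 with a term for series. With 1 library left out it was 2 to 9. It was 2 without WT HFD library 4 or *Acod1*-/- library 1, 3 or 4. It was 3 without WT HFD library 2, 9 without WT HFD library 3 and 8 without *Acod1*-/- library 5. The genotype count in iWAT (0) was 4 with DESeq2, 1 in the first series alone and 0 to 2 with 1 library left out. Between depots in WT on HFD (6), it was 3 at an adjusted p under 0.05 and 3 to 8 with 1 library left out, 3 without eWAT WT HFD library 1, 2 or 4. In *Acod1*-/- mice (2), it was 1 at an adjusted p under 0.05, 5 with DESeq2, 0 in the first series alone and 0 to 2 with 1 library left out: 0 without eWAT library 4 and 1 without iWAT library 2 or 3. The interaction of genotype and depot (0) gave 2 with DESeq2, 1 in the first series alone and 0 to 1 with 1 library left out, the 1 without iWAT *Acod1*-/- library 3. The cause of these changes was not tested. The share of all genes called moved with the setting as well. By diet in eWAT, 24.8% of all genes rose in the main fit, 10.5% without the filter and 17.5% with a term for series. The counts in this paragraph stand without that share, so they do not tell a change in these genes from a change in the whole fit. The first series alone, a fit added after the data were seen, held no ND library.

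Library numbers are shared between groups in the labels. The correlation of same-numbered libraries ran from -0.373 to 0.616 over the comparisons. Between depots of WT mice on HFD it was -0.083 to 0.616, with 4 of 5 pairs over 0.1. Libraries of different numbers were not set beside them, so these values cannot decide whether the numbers pair samples. The main fits did not pair them, and their p values do not allow for shared mice. Whether depots share mice is not given in the sources used here. With a replicate block, 13, 4, 34, 0, 34, 7, 2, 33 and 0 members were called in the comparisons in the order of diet in eWAT, genotype in eWAT, diet and genotype in iWAT, depot on ND, depot in WT and *Acod1*-/- mice on HFD, and the interactions of diet and of genotype with depot. These counts too stand without the share of all genes called, and nothing is read from them. Of 63 called values of named genes over the 9 comparisons, none changed sign in 1623 refits, and 94 were no longer called. Most of these refits belong to the contrasts that guided the choice of genes. Those lost the call in 8 of 288 refits (diet in iWAT), 2 of 431 (depot on ND) and 8 of 461 (interaction of diet and depot). The call was lost in 26 of 66 refits for genotype in eWAT and in 30 of 189 for diet in eWAT. For *Glycam1* between depots in WT mice on HFD, no value could be had without iWAT library 5, which held every read. Counts near 1 CPM, single libraries and the overlap of diet with series limit what these data can resolve.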
